A study of Mus musculus with 12 samples.

Results

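A set of 10 genes that mark alveolar type 1 cells were followed through the lungs and hearts of Adam19 wild type (WT) and knockout (KO) mice. They were the 10 of the 55679 listed genes whose symbols are Ager, Hopx, Pdpn, Aqp5, Rtkn2, Clic5, Emp2, Gprc5a, Lmo7 and Akap5, and each symbol matched 1 row. Alveolar type 1 cells are the thin, flat epithelial cells that cover most of the gas exchange surface and lie against the capillaries. In the adult lung they are renewed from alveolar type 2 cells, the cuboidal cells that secrete surfactant. Their markers include membrane receptors, water and ion transport proteins, scaffold proteins and HOPX, a small homeodomain protein that also acts in the heart muscle, so a marker of these cells within the lung need not be absent from the heart.

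The lung and heart of 6 adult male mice of strain 129S6/SvEvTac gave 12 libraries, with 3 WT and 3 KO mice and both tissues from each mouse. The KO mice were homozygous for an Adam19-tdTomato allele in which exons 6 and 7 of Adam19, a membrane metalloproteinase, were replaced by a red reporter construct, in every cell of the body. The whole organs were frozen, and strand-specific total RNA libraries were sequenced. Because whole organs were used, a lower level of a marker could come from fewer cells or from less RNA per cell, and these cannot be told apart. Values are the deposited normalised abundances on the log2 scale, log2(1 + value), unless stated otherwise, with 3 libraries in each group of a tissue and genotype. Differences were tested with limma over all genes of the filtered table, and a gene was called past the thresholds at an adjusted p under 0.05, a fold of at least 1.5 and a mean of at least 6 in 1 of the groups.

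The summed estimated counts lay between 17674788 and 28043361 in the lungs and between 18392292 and 35862932 in the hearts. Rn7s1, a signal recognition particle RNA, took between 2.1% and 34.0% of the summed lung abundance, and WT lung 3 had the least. Adam19 was 9.14, 9.41 and 9.12 in WT lungs and 4.44, 3.21 and 3.496 in KO lungs. In the hearts it was 9.17, 9.25 and 10.27 in WT and 6.67, 6.01 and 6.56 in KO, so the libraries of the genotypes did not overlap in either tissue. The KO difference of Adam19 was −5.51 in the lung (SE 0.33, limma adjusted p = 0.000186) and −3.14 in the heart (SE 0.31, limma adjusted p = 0.00558). The tissue labels were checked with 9 type 2 cell markers, whose summed level was 18.00 to 18.56 in the lungs and 10.47 to 11.18 in the hearts, and with 10 cardiomyocyte markers, at 13.73 to 15.01 in the lungs and 20.96 to 21.19 in the hearts.

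The promoters of the members that were nearly absent from the heart are shown with those of a pair that the heart also carried, to set the sequences next to the levels that follow. Each is the 250 bases before the annotated start in GRCm39, on the strand of the gene, 5′ to 3′. They are chr17:34816577-34816826 (plus strand) for Ager, chr15:99488282-99488531 (plus) for Aqp5, chr10:67815140-67815389 (plus) for Rtkn2, chr6:135042394-135042643 (plus) for Gprc5a, chr17:44499221-44499470 (plus) for Clic5 and chr5:77263023-77263272 (minus) for Hopx. For Aqp5 and Hopx the most upstream start of the named transcripts was taken. In Hopx this start held 44.3% of the pooled lung count and 38.1% of the heart count. The downstream start, not shown, held 55.2% and 61.2%. The motif counts below use downstream starts for both genes, by mean log2 lung level: ENSMUST00000231163.2 for Aqp5 and ENSMUST00000113453.9 for Hopx. In Aqp5 this transcript held 19.2% of the pooled lung count. The upstream ENSMUST00000169082.3 held 50.2%, but its estimate was 0 in KO lung 2, and the Aqp5 split could not be read, as given below. Capitals mark the GC box, GGGCGG or its reverse complement CCGCCC, a general promoter element that was searched for on both strands.

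Ager: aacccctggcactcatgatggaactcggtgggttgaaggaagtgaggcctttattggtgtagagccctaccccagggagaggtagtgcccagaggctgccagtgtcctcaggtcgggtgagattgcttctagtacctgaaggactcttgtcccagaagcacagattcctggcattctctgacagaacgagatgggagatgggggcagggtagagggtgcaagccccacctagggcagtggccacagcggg

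Aqp5: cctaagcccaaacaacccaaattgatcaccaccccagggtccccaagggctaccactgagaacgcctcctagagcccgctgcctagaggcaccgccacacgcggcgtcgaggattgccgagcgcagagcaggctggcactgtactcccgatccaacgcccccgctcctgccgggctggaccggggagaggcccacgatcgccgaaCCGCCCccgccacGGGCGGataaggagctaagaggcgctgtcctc

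Rtkn2: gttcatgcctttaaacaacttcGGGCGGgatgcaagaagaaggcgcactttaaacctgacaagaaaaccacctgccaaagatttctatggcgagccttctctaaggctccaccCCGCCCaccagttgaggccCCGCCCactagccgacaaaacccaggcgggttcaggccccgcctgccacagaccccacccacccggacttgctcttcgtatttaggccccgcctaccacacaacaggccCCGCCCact

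Gprc5a: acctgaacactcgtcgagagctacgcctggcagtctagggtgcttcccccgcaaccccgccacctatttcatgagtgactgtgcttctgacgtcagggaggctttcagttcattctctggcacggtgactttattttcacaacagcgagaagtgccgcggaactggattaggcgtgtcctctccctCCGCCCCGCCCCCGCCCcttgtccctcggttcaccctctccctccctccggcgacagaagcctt

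Clic5: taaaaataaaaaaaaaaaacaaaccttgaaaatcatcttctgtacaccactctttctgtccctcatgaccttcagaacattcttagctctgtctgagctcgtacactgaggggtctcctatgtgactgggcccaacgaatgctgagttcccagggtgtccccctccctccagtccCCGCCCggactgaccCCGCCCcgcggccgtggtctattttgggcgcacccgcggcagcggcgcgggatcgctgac

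Hopx: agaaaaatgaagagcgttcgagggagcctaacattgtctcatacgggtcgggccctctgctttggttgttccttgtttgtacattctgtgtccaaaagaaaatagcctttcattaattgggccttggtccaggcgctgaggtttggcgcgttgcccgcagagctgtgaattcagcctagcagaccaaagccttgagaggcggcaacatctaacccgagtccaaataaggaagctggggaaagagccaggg

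The Rtkn2 window held 4 GC boxes, the Gprc5a window 3, and the Aqp5 and Clic5 windows 2 each, while the Ager and Hopx windows held 0. At the start of the transcript with the highest mean log2 lung level, 6 of the 10 members had a GC box. Of the promoters of 14410 protein-coding genes tested in the lung, 46.6% had one. At this start the windows of Aqp5, Hopx and Lmo7 overlap annotated exons of the same gene, so they do not lie upstream of the whole gene. Windows of genes other than the members were not checked for such overlap. For the TEAD factors, which act with YAP, the letters CATTCC were searched on both strands and were in 0 of the 10 windows at that start, beside 11.3% of all promoters. The letters CAAGTG of the NKX2-1 motif were likewise in 0 of 10, beside 11.2%. For GATA factors AGATAA was in 0 of 10, beside 7.52%, and for the TATA box TATAAA was in 0 of 10, beside 7.89%. These counts hold for 1 start per gene, and Lmo7 had a near tie in the lung between ENSMUST00000159314.8, whose start was used, and ENSMUST00000159806.2, whose window holds a CAAGTG match on the reverse strand. With the other start the NKX2-1 count would be 1 of 10. The window of the weaker Lmo7 transcript ENSMUST00000159597.8 holds TEAD, NKX2-1 and GATA matches. The windows of these Lmo7 transcripts overlap exons of Lmo7, and whether they act as promoters was not tested. Counts of CG in the 6 windows shown ran from 4 in Ager to 22 in Aqp5, around a median of 11 over all promoters. The matches were spread over members with and without heart expression, and windows of this length leave distant elements unread.

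All 10 members were high in every lung, and they fell into 3 steps by their level in the heart. Ager, Aqp5, Rtkn2 and Gprc5a were at most 1.11% of the lung level of the same mouse in any heart. Akap5, Pdpn and Emp2 kept between 1.24% and 10.4%, and Clic5, Hopx and Lmo7 kept between 28.3% and 99.97%. In WT mice 9 of 10 members were called higher in the lung, beside 29.7% of the 16636 genes tested, while 50.2% of the genes were called in either direction. In KO mice 8 of 10 were called higher in the lung, beside 30.9% of 16802 genes, with 53.2% called in either direction. The median difference of the members was 4.92 in WT and 5.21 in KO mice, beside 0.30 and 0.28 over all genes tested. For 9 of the 10 members the 6 lungs and 6 hearts did not overlap, as for 57.4% of 17666 genes, and Hopx was the member whose tissues overlapped.

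**Figure D1:**
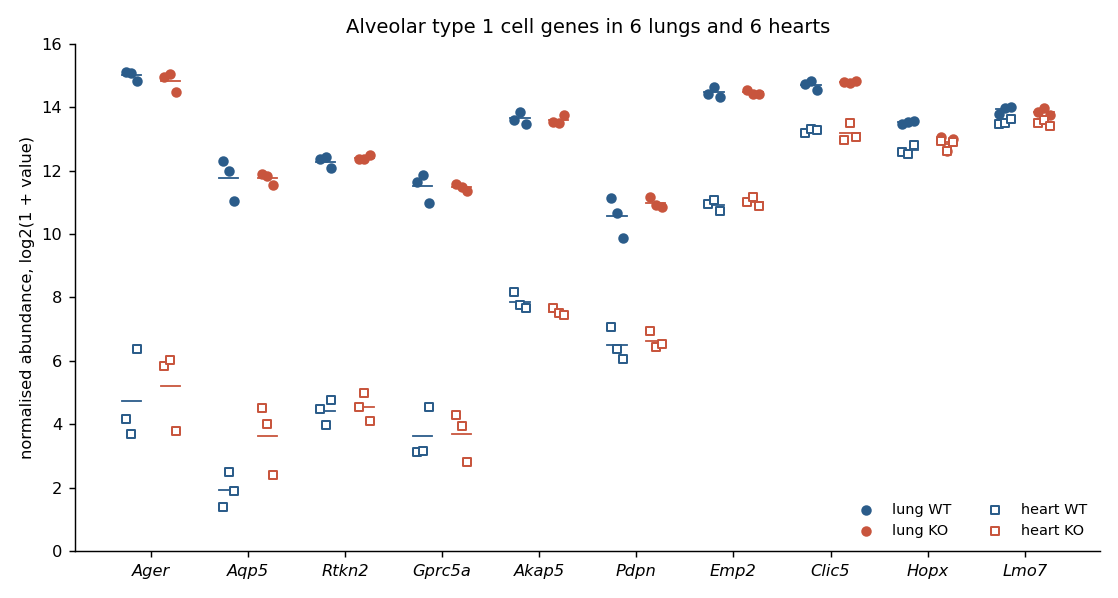
Normalised abundance of the 10 members on the log2(1 + value) scale (y axis) in each of the 12 libraries, with filled circles for lungs, open squares for hearts and a line at the mean of each group of 3. Ager sits at 14.47 or above in all lungs and at 6.36 or below in all hearts, while the Lmo7 points of both tissues lie between 13.40 and 14.02.

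Ager (chr17:34816827-34819910, plus strand) encodes RAGE, a pattern receptor on the basal membrane of type 1 cells that binds HMGB1 and S100 proteins. It was 15.12, 15.08 and 14.83 in WT lungs and 14.95, 15.05 and 14.47 in KO lungs. In the hearts it was 4.17, 3.68 and 6.36 in WT and 5.83, 6.03 and 3.79 in KO. The tissues were far apart in both genotypes, with a lung excess of 10.27 in WT (SE 0.60, limma adjusted p = 2.62e-06) and 9.61 in KO mice (SE 0.53, limma adjusted p = 1.26e-06). Per kilobase of transcript Ager had the highest level of the members in the lung, with a median of 23125 estimated counts per kb, between 16035 and 25009, beside 140823 for Sftpc, the surfactant protein C gene of type 2 cells.

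The genes of the apical membrane and of transport came next. Aqp5 (chr15:99488532-99492710, plus strand) encodes the apical water channel of type 1 cells. It was 12.29, 12.001 and 11.06 in WT lungs and 11.89, 11.83 and 11.55 in KO lungs. In the hearts it was 1.38, 2.48 and 1.89 in WT and 4.499, 3.999 and 2.39 in KO. The heart values rest on 1.12 to 27.9 estimated counts, and the gene was not tested between the hearts because fewer than 3 of them reached the filter, log2(1 + 10). The lung excess of Aqp5 was 9.87 in WT (SE 0.41, limma adjusted p = 5.87e-07) and 8.13 in KO mice (SE 0.47, limma adjusted p = 1.76e-06), with no overlap of the tissues.

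Gprc5a (chr6:135041809-135061707, plus strand) encodes an orphan receptor of the lung epithelium that retinoic acid induces. It was 11.64, 11.87 and 10.99 in WT lungs, 11.59, 11.50 and 11.35 in KO lungs, 3.12, 3.16 and 4.56 in WT hearts and 4.29, 3.95 and 2.80 in KO hearts. The lung excess was 7.89 in WT (SE 0.43) and 7.80 in KO mice (SE 0.35), and WT lung 3 held the lowest lung value, as it did for Aqp5.

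Pdpn (chr4:142990871-143026143, minus strand) encodes podoplanin, a mucin-like glycoprotein that mesothelium and lymphatic endothelium also carry. It was 11.14, 10.68 and 9.88 in WT lungs, 11.18, 10.90 and 10.86 in KO lungs, 7.06, 6.38 and 6.06 in WT hearts and 6.93, 6.43 and 6.54 in KO hearts. The lung excess was 4.07 in WT (SE 0.37) and 4.35 in KO mice (SE 0.17), both called. No lung came near any heart. The 6 lungs spread over 1.30, the widest range of the members, and WT lung 3 held the lowest value. Of the 6 mesothelium markers 5 were called higher in the WT lung and Wt1, named after its values were seen, lower, and their summed level was 12.45 to 12.64 in the lungs and 10.09 to 10.80 in the hearts. The 6 lymphatic markers summed to 12.30 to 12.91 in the lungs and 12.10 to 12.58 in the hearts, and no marker of either list was at 0. Prox1 weighs most in the lymphatic sum of the hearts, at 11.04 to 11.81 in the hearts and 5.99 to 6.46 in the lungs, while Lyve1, Flt4, Ccl21a and Mmrn1 were called higher in the WT lung. The part of these cells in the Pdpn level was not tested.

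Emp2 (chr16:10099459-10131832, minus strand), a small tetraspan membrane protein, lay between 14.34 and 14.65 in the lungs and between 10.72 and 11.17 in the hearts. Its lung excess was 3.56 in WT (SE 0.17) and 3.45 in KO mice (SE 0.12). Clic5 (chr17:44445659-44591590, plus strand), a chloride intracellular channel protein tied to the actin cortex, lay between 14.54 and 14.84 in the lungs and between 12.97 and 13.52 in the hearts. The heart of each mouse thus held between 28.3% and 42.0% of its lung level of Clic5. The lung excess was 1.44 in WT (SE 0.18, limma adjusted p = 0.000175) and 1.62 in KO mice (SE 0.17, limma adjusted p = 5.10e-05), with no overlap of the tissues.

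Among the signalling and scaffold genes, Rtkn2 (chr10:67815390-67895570, plus strand) was 12.36, 12.42 and 12.08 in WT lungs, 12.39, 12.36 and 12.50 in KO lungs, 4.49, 3.98 and 4.77 in WT hearts and 4.53, 4.97 and 4.10 in KO hearts. Its lung excess was 7.88 in WT (SE 0.25) and 7.88 in KO mice (SE 0.21). Akap5 (chr12:76371613-76382157, plus strand), an anchor for protein kinase A and calcineurin, was 13.48 to 13.86 in the lungs and 7.44 to 8.17 in the hearts. Its lung excess was 5.78 in WT (SE 0.19) and 6.06 in KO mice (SE 0.12), and all lungs stood above all hearts.

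Lmo7 (chr14:101967150-102172147, plus strand) encodes a LIM and PDZ domain protein of cell junctions that is also found in muscle. It was 13.79, 13.99 and 14.02 in WT lungs, 13.85, 13.97 and 13.75 in KO lungs, 13.48, 13.50 and 13.62 in WT hearts and 13.52, 13.59 and 13.40 in KO hearts. The lungs were above the hearts without overlap, but by 0.40 in WT (SE 0.17, 95% interval 0.01 to 0.79, limma adjusted p = 0.0717) and 0.35 in KO mice (SE 0.13, limma adjusted p = 0.0371), under the fold threshold in both. With the estimated counts of its transcripts summed in place of the deposited gene value, the sign turned, to −0.33 in WT and −0.25 in KO mice, so no direction is given for Lmo7. Quantile normalisation across the tissues gave 1.29 in WT and 1.23 in KO mice, and called it higher in the lung in both.

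Hopx (chr5:77234831-77263022, minus strand) acts without binding DNA itself and restrains serum response factor in the developing heart. It was 13.49, 13.55 and 13.56 in WT lungs and 13.08, 12.61 and 13.01 in KO lungs. In the hearts it was 12.61, 12.52 and 12.82 in WT and 12.95, 12.61 and 12.92 in KO. The WT lungs stood above every heart, while the KO lungs lay within the heart values or just above them. The lung excess was 0.88 in WT (SE 0.16, 95% interval 0.52 to 1.25, limma adjusted p = 0.00152) and 0.07 in KO mice (SE 0.16, 95% interval −0.30 to 0.45, limma adjusted p = 0.699), though quantile normalisation called the KO excess too, at 0.66, and centring on the median gene turned it to −0.07. Per kilobase, Hopx was the second most abundant member in the lung, with a median of 8347 and a range of 5359 to 10019, and the most abundant in the heart, with a median of 5607 and a range of 4827 to 6565.

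**Figure D2:**
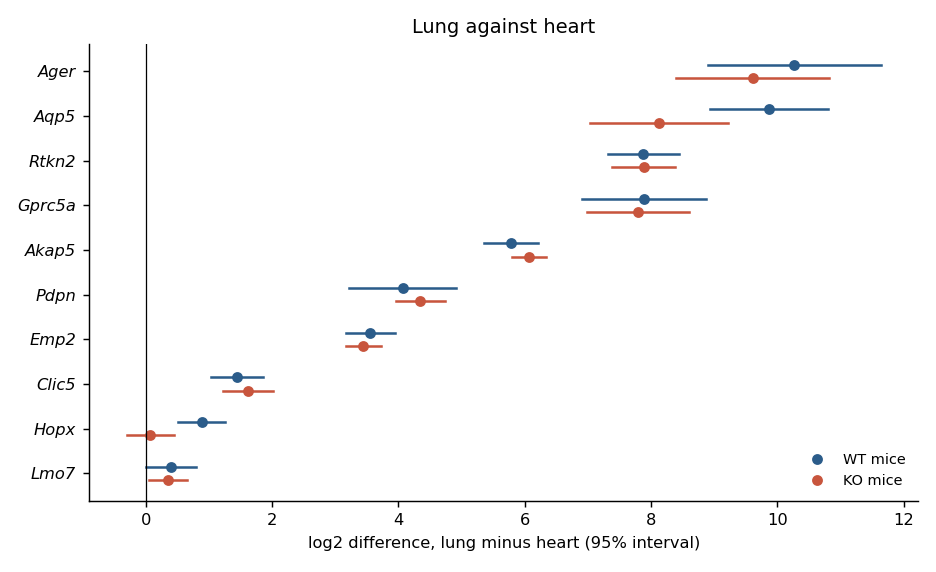
Difference between lung and heart (x axis, log2, lung minus heart, with its 95% interval from limma) for each member (y axis), in WT mice (blue) and KO mice (red). Differences run from 10.27 for Ager to 0.40 for Lmo7 in WT mice, and the Hopx estimates of the genotypes are 0.88 and 0.07.

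On the scale of estimated counts per kb, the lung order was Ager, Hopx, Emp2 (median 6138), Clic5 (4438), Lmo7 (3942), Aqp5 (1913), Akap5 (1622), Rtkn2 (1433), Gprc5a (1430) and Pdpn (381). The ranges of Ager and Hopx did not meet, and neither did those of Pdpn and any other member. Over the lungs of both genotypes together, the ranges of Hopx and Emp2 overlapped, as did those of Clic5 and Lmo7. The ranges of Aqp5, Akap5, Rtkn2 and Gprc5a lay over each other. In WT lungs the mean was 9827 (SD 274) for Hopx and 6335 (SD 708) for Emp2, whose highest lung was at 7125. In KO lungs the means were 6490 (SD 988) and 6312 (SD 354). Neighbours were not compared within each library, so whether they differ was not tested. Counts of transcripts without a reference length, 7.56% for Aqp5 and 4.09% for Lmo7, were left out. In the heart Hopx was followed by Lmo7 (median 2953), Clic5 (1510) and Emp2 (562), and the other 6 members had medians of 26.2 per kb or less.

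The question of the genotype comparison was whether type 1 cell genes changed in lungs without Adam19. None of the 10 members was called between KO and WT lungs, where 0.0665% of 16551 genes were called, and 0 of the 9 tested were called between the hearts, where 0.0850% of 15303 genes were. At an unadjusted p under 0.05 limma counted 1 member in the lung and 0 in the heart. Of all genes tested, 981 of 16551 in the lung and 1141 of 15303 in the heart were under this p. The median KO difference of the members was −0.02 in the lung and 0.11 in the heart, beside 0.01 and 0.03 over all genes tested.

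Hopx was the member at an unadjusted p under 0.05 in the lung. Its 3 KO lungs, at 12.61 to 13.08, lay below its 3 WT lungs, at 13.49 to 13.56, with no overlap, as was so for 12.8% of the genes tested. The difference was −0.63 (SE 0.17, 95% interval −1.01 to −0.25, limma adjusted p = 0.806), a level 0.646 times that of WT, and it did not pass the test. It was −0.49 without KO lung 2, the library with the lowest value, and −0.72 without KO lung 1. In the heart Hopx was 0.18 higher in KO (SE 0.14, limma adjusted p = 0.781), and the difference of the KO effect between lung and heart was −0.81 (SE 0.22, limma adjusted p = 0.502). Aqp5 had a lung KO difference of −0.02 and only 1.12 to 27.9 estimated counts in the hearts. Its difference of the KO effect was −1.74 (SE 0.68, limma adjusted p = 0.599). That test called 1 of 17666 genes, or 0.00566%, and 0 of the 10 members.

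Summed markers of other cells are given beside Hopx for the same lungs. The 10 cardiomyocyte markers, which lungs can carry in the muscle sleeves of the pulmonary veins, had a median KO difference of −0.58 in the lung, and 0 of 10 were called. Their summed level was 14.43, 14.18 and 15.01 in WT lungs and 14.25, 13.81 and 13.73 in KO lungs, which overlapped, and none of these markers was at 0. The type 2 markers summed to 18.37, 18.42 and 18.56 in WT lungs and 18.25, 18.16 and 18.00 in KO lungs, without overlap and with 0 of 9 called. Sftpc weighs most in this sum, with a KO difference of −0.67, while Sftpb was at 0.29 and the median marker at −0.20. The airway markers summed to 17.94, 18.45 and 17.91 in WT lungs and 18.48, 18.73 and 18.71 in KO lungs, again without overlap and with 0 of 7 called, with Scgb1a1 at 0.64 and the median marker at 0.37. The mesothelium and lymphatic sums overlapped between the genotypes. The part of these cell types in the Hopx values was not tested.

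The other 9 members had KO differences between −0.18 (Ager) and 0.42 (Pdpn) in the lung, with adjusted p of 0.841 or more from limma. Both ends rest on 1 library each, since Pdpn was at 0.071 without WT lung 3 and Ager at −0.0059 without KO lung 3. Leaving out other single lungs moved Pdpn up to 0.70 and Ager down to −0.29. The interval was widest for Aqp5, at −0.69 to 0.64, and for Pdpn, at −0.25 to 1.08, and narrower for Ager, at −0.64 to 0.27, Rtkn2, at −0.22 to 0.47, Clic5, at −0.25 to 0.46, and Emp2, at −0.36 to 0.36. These intervals show how loosely 3 lungs against 3 set each difference. They are not limits of detection, since Hopx, at −1.01 to −0.25, was not called either. In the heart Akap5 was the member whose genotypes did not overlap, at 8.17, 7.75 and 7.68 in WT and 7.66, 7.51 and 7.44 in KO, a gap that 13.0% of genes showed. Its difference was −0.33 (SE 0.19, 95% interval −0.75 to 0.09, limma adjusted p = 0.734), and −0.18 without WT heart 1.

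**Figure D3:**
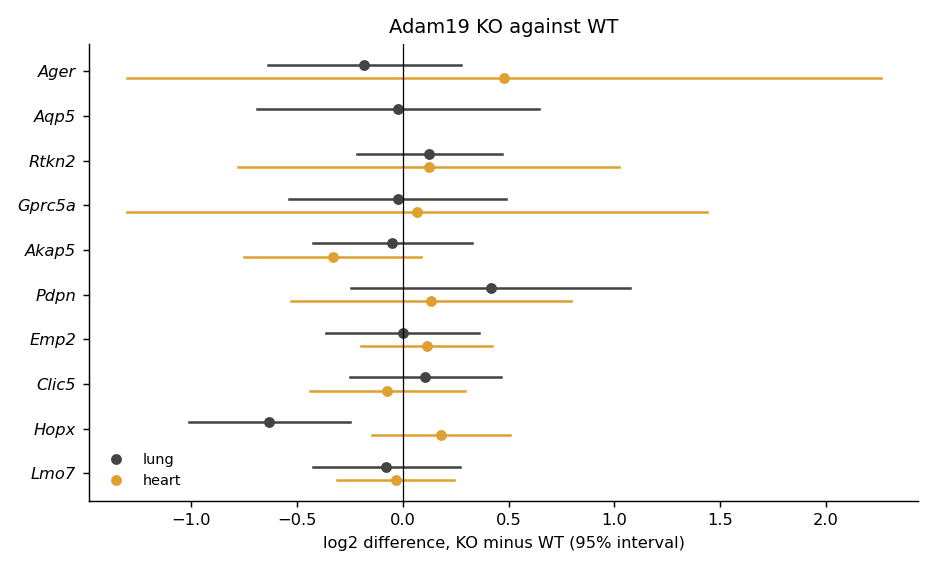
KO minus WT difference (x axis, log2, with its 95% interval from limma) of each member (y axis) in the lung (grey) and the heart (yellow), where Aqp5 was not tested. The interval excludes 0 for Hopx in the lung (−1.01 to −0.25, adjusted p = 0.806), and the heart intervals of Ager and Gprc5a reach past 1 in both directions.

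The members also varied among the 6 lungs apart from genotype. WT lung 3 was the lowest lung for Pdpn (−1.01 from the median lung), Aqp5 (−0.81), Gprc5a (−0.55), Rtkn2 (−0.29), Clic5 (−0.25), Emp2 (−0.09) and Akap5 (−0.09), while it was the highest for Hopx and Lmo7. This library had the lowest share of Rn7s1 and the highest Sftpc (17.28) of the lungs. Ager was lowest in KO lung 3, at 14.47. Each member was set against the mean of the other 9 over the 6 lung libraries, which share their scaling, as a description. Pearson r was 0.97 for Gprc5a, 0.89 for Aqp5 and 0.75 for Emp2, between 0.43 and 0.63 for Akap5, Ager, Pdpn, Rtkn2 and Clic5, and −0.13 for Hopx and −0.33 for Lmo7.

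Likeness was searched among genes past the filter with a mean of at least 6 over the libraries used, members left out. Among 12872 such genes in the lung, those most like the mean of the 10 members over the 6 lungs were Nr1h2 (r = 0.995), Lamb3 (0.995), Evpl (0.993), Ldb3 (0.993) and Kctd17 (0.993), each lowest in WT lung 3. Their ranges over the lungs were 0.32 to 1.33. They are the highest of 12872 correlations over 6 libraries, given as a description and not tested. Over all 12 libraries, in which tissue sets the pattern, the genes most like Ager were Sftpc (r = 0.999), Slc34a2 (0.998), Gramd2 (0.998), Napsa (0.998) and Scnn1g (0.997), and 60 of 12172 genes reached an r of 0.99. Gramd2 and Scnn1g, a subunit of the epithelial sodium channel, are listed as type 1 cell genes, and Sftpc, Slc34a2 (a phosphate transporter) and Napsa (an aspartic protease that processes surfactant proteins) belong to type 2 cells.

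The hearts held traces of the members most restricted to the lung, and several of them were highest in the same libraries as genes of other lung cells. Ager in the heart, as a percentage of the lung of the same mouse, was 0.0480, 0.0342 and 0.280 in WT mice and 0.176, 0.189 and 0.0566 in KO mice. For Sftpc these values were 0.0335, 0.0211 and 0.131 in WT and 0.121, 0.226 and 0.0326 in KO mice. For Scgb1a1, the secretoglobin of airway club cells, they were 0.0445, 0.00781 and 0.200 in WT and 0.426, 0.0969 and 0.00930 in KO mice. WT heart 3, KO heart 1 and KO heart 2 were the highest 3 hearts for each of these genes and for Gprc5a. Aqp5 went another way, at 0.0320, 0.112 and 0.127 in WT and 0.568, 0.411 and 0.141 in KO mice, with KO heart 3 above WT heart 3.

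Estimated counts in the hearts were 6.57 to 66.7 for Ager, 4.18 to 20.1 for Gprc5a and 6.75 to 33.9 for Rtkn2. Nkx2-1, the factor that defines lung epithelium, had 0 counts in 3 hearts and at most 2.38 in the others, a count that cannot order the hearts. KO heart 1 also stood out for Scgb3a2, at 1.77% of the lung, and for Cyp2f2, at 1.57%, both airway genes. Gene values this low turn on few reads, and the part of lung RNA in the hearts' values was not tested. In contrast, Emp2 was 8.14% to 10.4% and Akap5 1.24% to 2.31% of the lung level in the hearts, and their highest 3 hearts were not the same 3.

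**Figure D4:**
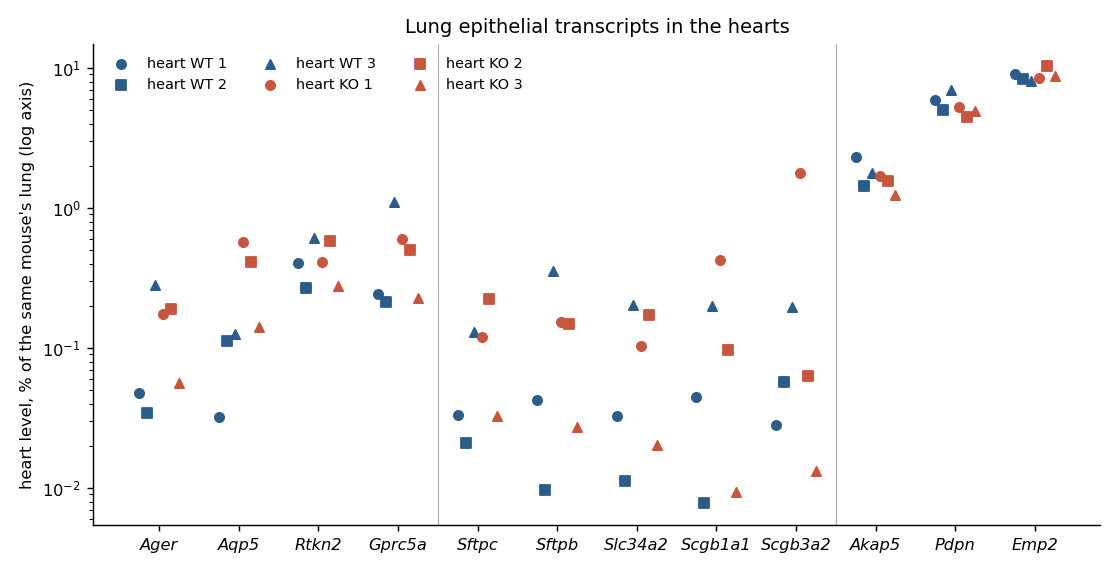
Level in each heart as a percentage of the lung of the same mouse (y axis, log scale) for members nearly absent from the heart (left), type 2 and airway cell genes (middle) and members with clear heart levels (right), with WT in blue, KO in red and a symbol for each mouse. WT heart 3, KO heart 1 and KO heart 2 are the highest hearts for Ager, Gprc5a, Sftpc, Sftpb, Slc34a2, Scgb1a1 and Scgb3a2.

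Transcript values were used to compare the annotated starts of Hopx and Lmo7. A named transcript held at least 10% of the estimated count of its gene in a tissue, and the annotation used for their structure was GENCODE vM39 on GRCm39. In WT mice 15 of the 18 named transcripts tested were called, 13 of them higher in the lung, beside 29.0% of 35553 transcripts called and 15.5% called higher in the lung. In KO mice 14 of 20 were called, 12 higher in the lung, beside 37.2% and 20.2% of 36424. Both counts include transcripts of Akap5, Rtkn2 and Aqp5, whose splits could not be read, as given below, so they are not counts of separate results. Clic5, Emp2, Pdpn and Gprc5a each had at least 98.4% of their count in 1 transcript in every library.

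Hopx used a pair of transcripts that code for the same length of protein and start 19877 bases apart. The downstream one, ENSMUST00000113453.9, took 63.6%, 63.9% and 61.6% of the gene's count in WT lungs and 61.6%, 27.8% and 49.97% in KO lungs. In the hearts it took 55.8%, 73.4% and 56.9% in WT and 63.3%, 65.1% and 57.7% in KO. Its share was lowest in KO lung 2, the library with the least Hopx, and near the WT shares in KO lung 1. The WT lungs averaged 63.1% ± 1.22 (SD, n = 3) and the KO lungs 46.4% ± 17.2 (SD, n = 3), with an exact two-sided permutation p of 0.1, the smallest that 3 against 3 can give, and 0.2 after adjustment over the 6 transcripts of Hopx and Lmo7 compared. On the log2 scale this transcript was 12.82, 12.89 and 12.86 in WT and 12.38, 10.88 and 12.05 in KO lungs, while the upstream one, ENSMUST00000081964.7, was 11.97, 12.05 and 12.15 in WT and 11.69, 12.25 and 12.05 in KO lungs. The downstream transcript was below its WT values in all 3 KO lungs, and the upstream one overlapped them. Among genes, 12.8% showed such a gap between the genotypes in the lung, and the share among transcripts was not counted. Transcript levels were not tested between genotypes.

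Lmo7 spread over annotated starts up to 151127 bases apart. The largest shares lay in ENSMUST00000159314.8, with 33.0% of the pooled lung count and 37.9% of the heart count, and ENSMUST00000159806.2, with 34.2% and 27.1%. The latter has only 29 words of 31 bases found in no other named transcript of the gene. Its share ran from 17.3% to 41.7% in the lungs, so no main start is named for Lmo7. The longest form, ENSMUST00000100337.10 with 31 exons, took 0.464% to 2.19% of the gene in the lungs and 7.15% to 15.1% in the hearts, and ENSMUST00000159597.8 took 5.24% to 8.19% and 11.7% to 15.7%. Neither overlapped between tissues, and both were lower in the lung in 6 of 6 mice. The exact paired permutation p was 0.03125 for each, the smallest possible with 6 pairs, and 0.0625 after adjustment over the 10 transcripts compared. As levels, the first differed between lung and heart by −3.80 in WT mice (SE 0.46, limma adjusted p = 0.00151) and −3.46 in KO mice (SE 0.48), and the second −1.50 (SE 0.30) and −1.11 (SE 0.16), all called. With transcripts scaled by depth alone the second was −0.41 in KO mice and was not called. The Lmo7 locus overlaps Gm9922, an antisense RNA at no more than 4.24 in any library, and Hopx overlaps Hopxos, at no more than 3.67.

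**Figure D5:**
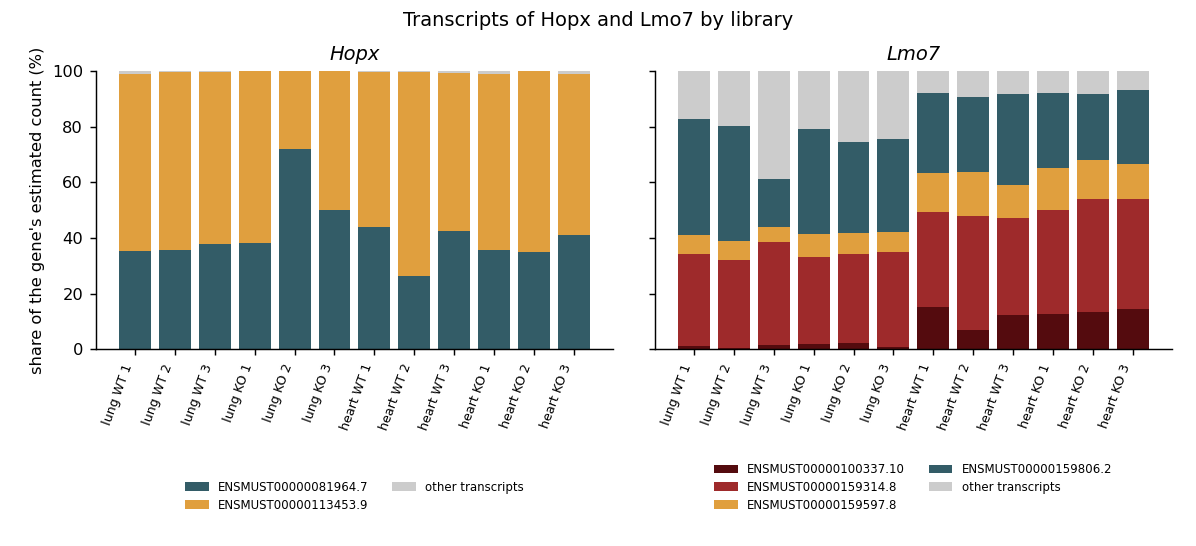
Share of the estimated count of Hopx (left) and Lmo7 (right) in each named transcript (colours, y axis in percent, bars from 0 to 100) for the 12 libraries on the x axis. The Hopx transcript ENSMUST00000113453.9 drops to 27.8% in KO lung 2, and the Lmo7 transcript ENSMUST00000100337.10 is at 7.15% or more in each heart and at 2.19% or less in each lung.

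The splits of Akap5, Rtkn2 and Aqp5 could not be read. The Akap5 transcripts ENSMUST00000095610.9 and ENSMUST00000154078.3 differ by 0 of 7969 bases in GENCODE vM39 and have annotated coding lengths of 2256 and 2235 bases, so their estimated counts, 0 in all hearts for the first, do not measure separate RNAs. The Rtkn2 transcripts share nearly all of their sequence, and ENSMUST00000117086.2 held no 31-base word of its own. In Aqp5, with 28 such words of its own, the estimate for ENSMUST00000169082.3 moved from 77.6% of the gene in WT lung 1 to 0 in KO lung 2. Ager had 2 named transcripts with 55 and 28 such words of their own, and ENSMUST00000015596.10 took 57.8% to 68.1% of its count in the lungs. On the same strand, no other annotated gene matched a named transcript over at least 200 bases at 95% identity or more. The opposite strand was not searched. There Hopxos, Gm34765, Gm16212 and Gm9922 overlap exons of Hopx, Aqp5, Rtkn2 and Lmo7 by 864, 374, 307 and 134 bases.

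Other type 1 cell genes were also mostly higher in the lung. Of 26 listed genes in the table, 25 were called higher in the WT lung, beside 29.7% of all genes tested, with a median difference of 4.08, and 24 in KO mice, beside 30.9%. The largest differences in WT were those of Cldn18, a tight junction claudin shared with type 2 cells, at 11.15 (SE 0.87), Sec14l3, also listed as an airway gene, at 10.64 (SE 0.44), and Gramd2, at 10.18 (SE 0.75). Itgb6, a subunit of the integrin that activates TGF-beta, named after its values were seen, was the exception in WT mice, at −0.02 (SE 0.17). None of the 26 was called between KO and WT lungs, and their median KO difference there was −0.01.

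Of 21 regulators of the type 1 fate, 12 were called higher and 4 lower in the WT lung, beside 29.7% of all genes called higher and 20.5% called lower, so the count of lower genes is near the background. Of the regulators 0 were called between genotypes in either tissue. Nkx2-1 was 9.09 higher (SE 0.49) and Fgfr2, a receptor for lung fibroblast growth factors, 6.99 higher (SE 0.26), while Ankrd1, a YAP target that heart muscle also makes, had a difference of −5.47 (SE 0.19). Of 21 tested relatives of the members in their families, 11 were called higher and 3 lower in the WT lung, to be read beside the same 29.7% and 20.5%. Clic3 was 6.84 higher (SE 0.38) and Clic6 5.96 higher (SE 0.48), and Akap6, the anchor of the cardiac nuclear envelope, had a difference of −5.52 (SE 0.16), opposite in sign to Akap5. The RAGE ligands and partners had 8 of 10 called higher in the WT lung and 0 lower, beside the same shares, led by S100a9 at 7.24 (SE 0.79), S100a8 at 6.06 (SE 0.35), both calcium-binding proteins of neutrophils, and S100a6 at 2.88 (SE 0.31). None of the relatives or RAGE partners was called between genotypes in the lung or heart.

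The marker lists of the other cells divided by tissue. All 9 type 2 markers were called higher in the WT lung, led by Slc34a2 at 11.10, Sftpc at 11.08 and the collectin gene Sftpd at 10.89, as were all 7 tested airway markers, led by Scgb1a1 at 11.22, Sec14l3 at 10.64 and Cyp2f2, a cytochrome of club cells, at 10.52. All 10 cardiomyocyte markers were called lower, with Myl2 at −10.61, Nppa at −8.26 and Pln at −7.97. Among the mesothelium markers Krt19 was 4.91, Upk1b 2.34 and Msln 1.66 higher in the lung. Of the 6 lymphatic markers 4 were called higher and 1 lower, with Prox1 at −5.40, Lyve1 at 2.38 and Flt4 at 0.76. No gene of these lists was called between KO and WT in the lung or the heart.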

How the data were processed

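RNA from 6 lungs and 6 hearts was analysed, with 3 libraries for each tissue and genotype. The authors deposited a gene table of log2 abundances adjusted between libraries and a transcript table of log2 values, both made with Salmon from GENCODE vM33 transcripts on mm39. By their size the transcript values are log2(1 + estimated count), so counts and shares were taken back from them. The submitters' processing notes also list cutadapt, STAR and limma 3.42.2. The step from transcripts to genes and the adjustment are not given in the sources used here. The deposited gene values of genes with 1 transcript differed from the transcript values by a constant in each library, from −0.63 to 0.80, which was added to the transcript values.

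Genes of at least log2(1 + 10) in 3 of the libraries compared were tested with limma 3.58.1 in R 4.3.3, with a trended prior and Benjamini-Hochberg adjustment over all features. Single values were compared by exact two-sided permutation tests over samples. Scripts were tested on simulated data. The members and lists were chosen with earlier results of these data known. Named were the members, Adam19, the 3 largest called differences of each list in WT lung against heart, any list gene called between genotypes, the 5 genes most like the members or Ager, and transcripts holding at least 10% of a member's count in a tissue. Promoters and structure came from GENCODE vM39 on GRCm39, in which 99.0% of the gene IDs matched. The GC box was added after the other motifs had been searched. Copies were searched on the same strand with blastn 2.17.0+.

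P-values measure the spread between these mice. Lung and heart of a number share a mouse by the titles, so they are paired. The printed limma fits between tissues, and of the difference of the KO effect, did not use this pairing. The mouse block among the alternatives does. Their deviations from the group means correlated at −0.07 to 0.14 over 17666 genes. The alternatives were voom weights, a model of all libraries, other filters, median centring, quantile normalisation, a pseudocount of 8, summed transcripts, depth scaling, a mouse block and leaving out each library.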

Additional observations from a re-analysis of the deposited data

How the results depend on the processing

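Members called between lung and heart numbered 7 to 10 in WT and 6 to 10 in KO mice over the alternatives, and 0 were called between genotypes or in the difference under any of them. The low counts follow from a filter in every library, which left low heart members untested, and the high ones from quantile normalisation. Fitting the mouse as a replicate block changed no member's call and gave 2 genes for the difference of the KO effect, beside 1 without it. That count was 0 with median centring, 4 with a pseudocount of 8 and 0 to 5 without single libraries. A filter in every library left 1 gene called between lungs and 7 between hearts, and leaving out single heart libraries gave 10 to 21, the last without KO heart 2. Signs turned for small differences, and the cause was not tested. In the lung KO comparison Emp2 became 0.0040 with median centring, Akap5 0.029 with quantile normalisation, and Aqp5 0.016 and Lmo7 0.12 with summed transcripts. In the heart quantile normalisation gave Gprc5a −0.14, Pdpn −0.0086 and Rtkn2 −0.016, and summed transcripts gave Lmo7 0.038. Between tissues, summed transcripts gave Lmo7 −0.33 in WT and −0.25 in KO mice, and median centring gave Hopx −0.068 in KO mice. Depth scaling of transcripts gave Lmo7 ENSMUST00000159314.8 0.0018 in WT and 0.18 in KO mice, Lmo7 ENSMUST00000159806.2 0.19 in WT mice and Hopx ENSMUST00000113453.9 0.33 in KO mice. For the difference of the KO effect Rtkn2 became −0.0040 with voom weights and −0.23 with summed transcripts, and Lmo7 0.023 with median centring and 0.080 with summed transcripts. Without single libraries the lung KO differences ran from −0.13 to 0.057 for Akap5, −0.39 to 0.23 for Aqp5, −0.067 to 0.087 for Emp2 and −0.28 to 0.16 for Gprc5a. The heart ones ran from −0.052 to 1.29 for Ager, −0.24 to 0.030 for Clic5, −0.24 to 0.54 for Gprc5a, −0.076 to 0.016 for Lmo7, −0.088 to 0.42 for Pdpn and −0.10 to 0.34 for Rtkn2. Hopx in KO lung against heart ran from −0.034 to 0.22, its transcript ENSMUST00000113453.9 from −0.67 to 0.0800, and Lmo7 ENSMUST00000159806.2 in WT from −0.59 to 0.41. The differences of the KO effect ran from −0.56 to 0.21 for Gprc5a, −0.12 to 0.0090 for Lmo7, −0.063 to 0.57 for Pdpn and −0.21 to 0.22 for Rtkn2. Few counts in the hearts limit Ager, Aqp5, Gprc5a and Rtkn2 there.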
